A study of Homo sapiens with 6 samples.

Results

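The genes described here are the heat shock proteins, the DNAJ and BAG cochaperones and the heat shock factors of human RPE1 cells, an immortalised line from the retinal pigment epithelium. Members were taken by gene name: the HSPA, HSPB, HSPD, HSPE, HSPH and HSP90 genes, CRYAB, the DNAJA, DNAJB and DNAJC genes, BAG1 to BAG6 and HSF1, HSF2, HSF4 and HSF5. Pseudogenes with names ending in P or in P and digits, antisense genes and HSPBAP1 were left out. This rule gave 88 of the 60448 genes listed. They include DNAJB3 and HSPA7, annotated as pseudogenes, and 3 readthrough genes (DNAJC25-GNG10, HSPB2-C11orf52 and HSPE1-MOB4), all without reads and untested. The assay was 4sU-seq, in which cells take up a labelled uridine and the RNA made during that time is sequenced. Wild type cells without H2O2, wild type cells given H2O2 and cells with NuMA (TDIF) knocked down and given H2O2 were compared, with 2 libraries in each of the 3 groups. The knockdown cells had received doxycycline and the wild type cells had not, so the drug and the knockdown cannot be told apart. NuMA, a nuclear protein, is best known for its work at the poles of the mitotic spindle. No untreated knockdown cells were analysed here, and the labels give neither the H2O2 dose, nor the times, nor whether the 2 libraries of a group came from separate cultures.

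Chaperones bind unfolded proteins and help them fold, refold or reach the machinery that degrades them. HSP70 proteins do so in cycles of ATP hydrolysis: DNAJ proteins bring clients and start the hydrolysis, while HSP110 and BAG proteins release the nucleotide. HSP90 acts later on many signalling proteins, the chaperonin HSPD1 with its lid HSPE1 folds proteins inside mitochondria, and small heat shock proteins hold unfolded chains without ATP. The heat shock factor HSF1 binds inverted GAA and TTC units, the heat shock element, and switches on many of these genes when misfolded proteins build up in the cytosol. In the endoplasmic reticulum (ER), the unfolded protein response does the same for HSPA5, HSP90B1, DNAJB9, DNAJB11 and DNAJC3. Oxidants such as H2O2 damage proteins and are among the known triggers of both responses.

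These elements could be read in RefSeq promoters of build GRCh38.p14, in windows of 300 bases that run from 250 before to 50 after each start site. A promoter was given for 74 of the 88 members. A heat shock element of 3 units (GAANNTTCNNGAA or TTCNNGAANNTTC, which together cover both strands) stood in 7 of them, or 9.46%, and in 166 of 27305 promoters of all genes, or 0.608%. Those 7 promoters belong to DNAJA1, DNAJB6, HSP90AA1, HSP90AB1, HSPA6, HSPA8 and HSPD1. The shorter 2-unit form (GAANNTTC or TTCNNGAA), which every 3-unit match also holds and which was searched only after the data had been seen, stood in 23 of 74 member promoters, or 31.1%, and in 16.2% of all. The ER stress element (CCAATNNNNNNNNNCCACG, either strand) stood in 2 member promoters, those of HSPA5 and HSP90B1, and in 0.0916% of all. The following stretches are shown because their genes are among the members with the most reads or the largest changes described further on, and each is printed on the strand of its gene with the matched letters in capitals.
HSPA8: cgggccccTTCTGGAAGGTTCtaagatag
HSP90AA1: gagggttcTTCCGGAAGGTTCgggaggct
HSP90AB1: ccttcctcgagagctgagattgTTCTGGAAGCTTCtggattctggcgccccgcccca
HSPA6: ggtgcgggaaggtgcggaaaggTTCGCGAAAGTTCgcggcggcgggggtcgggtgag
HSPA1A: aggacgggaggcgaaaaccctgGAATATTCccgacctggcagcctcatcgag
HSPB1: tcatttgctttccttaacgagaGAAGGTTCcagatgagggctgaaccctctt
DNAJB1: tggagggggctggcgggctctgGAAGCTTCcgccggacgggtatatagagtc
HSPA5: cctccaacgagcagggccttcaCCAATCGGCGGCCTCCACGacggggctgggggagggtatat
HSP90B1: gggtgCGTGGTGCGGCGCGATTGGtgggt

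The first 4 hold 3-unit heat shock elements, the next 3 hold 2-unit elements, and the last pair hold ER stress elements. The printed element of HSP90B1 runs in the reverse direction, and its window also holds a forward one, not printed. The windows of HSPA8 and HSP90AB1 likewise each hold another 3-unit element that is not printed. The stretch of HSPA8 lies at chr11:123062171-123062199 on the minus strand, that of HSP90AA1 at chr14:102087112-102087140 on the minus strand, that of HSP90AB1 at chr6:44247809-44247865 on the plus strand and that of HSPA6 at chr1:161524444-161524500 on the plus strand. The stretches with 2-unit elements lie at chr6:31815415-31815466 (HSPA1A, plus strand), chr7:76302469-76302520 (HSPB1, plus strand) and chr19:14518415-14518466 (DNAJB1, minus strand). The ER stress elements lie at chr9:125241369-125241431 (HSPA5, minus strand) and chr12:103930316-103930344 (HSP90B1, plus strand). A match in these windows is a run of letters, and whether a factor was bound there was not measured.

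The deposited tables hold 1 value per gene and group, so levels are given as the mean count of the 2 libraries of a group, and the spread between the 2 libraries is seen only through the authors' p-values. Mean counts summed to 14576529 for the untreated wild type, 17989740 for the wild type given H2O2 and 16565168 for the knockdown given H2O2. For 16 members, BAG1, DNAJB11, DNAJC10, DNAJC21, HSP90B1, HSPA4, HSPA9 and HSPA14 among them, mean counts may be off by a factor common to the 3 groups, which leaves their changes as they are. The members took 0.963%, 1.20% and 1.01% of the totals above. Genes whose length matched the annotation held 12539786, 14857584 and 13961358 of those totals. Counts of the other genes may be off by a factor, so totals and shares are approximate. The log2 change of the median gene was 0.29 with H2O2 and -0.29 with the knockdown, a factor of 1.22 in both, and all changes below are log2 differences relative to that median gene, followed by their standard error. A rise or fall was called where the authors' adjusted p and the adjusted p of the centred change were both under 0.05 in the same direction, and the adjusted p printed is that of the centred change unless stated otherwise. NUMA1 itself had 1168, 1571 and 933.5 mean counts in the 3 groups in the order above, and fell by 0.46 ± 0.12 with the knockdown. The 10 retinal pigment epithelium markers summed to 1100.5, 956.5 and 828.5 mean counts. Among them TYR was at most at 3 in every group, RPE65 had 0, 6 and 0.5 and MITF had 674, 660.5 and 583.5. BEST1, with 4.5, 63 and 33.5, rose with H2O2 by 3.25 ± 0.65, OTX2, with 387, 166.5 and 160.5, fell by 1.5 ± 0.26, and none was called with the knockdown. Epithelial markers summed to 19577, 43587 and 29165 mean counts and fibroblast markers to 4895.5, 10460.5 and 8684. Neuronal markers summed to 551, 677.5 and 394.5 and immune markers to 5, 6 and 2.5. A few genes carried the larger sums. KRT8 had 13889.5, 35005 and 22186, beside 1.5, 12 and 12 for CDH1 and 2.5, 0 and 0.5 for EPCAM. PDGFRB had 407.5, 3987 and 2405, beside 31, 19.5 and 12.5 for DCN and 20, 6 and 0.5 for COL3A1. The part of all these markers in the results was not tested. In such bulk RNA, more of the cells making a transcript and more of it per cell cannot be told apart.

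In wild type cells given H2O2, 18 members rose and 4 fell among the 77 tested. The share that rose was 23.4%, against 16.6% of the 18522 genes tested, and the share that fell was 5.19%, against 9.6%. Of the 77 members, 68 reached 50 mean counts over the 2 groups, beside 11602 of all tested genes. The shares were not matched for counts. The median change of the members was 0.10, and that of all tested genes 0.05. By the centred test alone, 18 rose and 8 fell, against 16.6% and 15.8% of all genes, and by the authors' test alone 30 rose and 4 fell, against 26.7% and 9.6%. The members that rose by at least 2-fold were HSPA6, HSPA2, HSPA1A, CRYAB, HSPA1B, DNAJB9, DNAJC6 and HSPB1. Those that fell by at least 2-fold were DNAJC17, DNAJC30 and HSPA14.

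With NuMA knocked down, among H2O2-treated cells, 8 members were higher and 22 lower of the 76 tested. The shares were 10.5% higher, against 6.81% of the 18266 genes tested, and 28.9% lower, against 14.5%. Of the 76 members, 69 reached 50 mean counts over the 2 groups, beside 11556 of all tested genes, and low counts widen the standard error. The shares were not matched for counts, and the part of counts in them was not tested. The members' median was -0.01, beside 0.01 for all genes. By the centred test alone, 19 were higher and 22 lower, against 15.4% and 14.5% of all genes, and by the authors' test alone 8 were higher and 33 lower, against 6.81% and 28.0%. Both comparisons use the H2O2-treated wild type libraries, so a high or low value in those libraries pushes the 2 changes of a gene in opposite directions. CRYAB and HSPB8 were higher by at least 2-fold, and DNAJC2, HSPA8, DNAJC9, HSPH1 and HSPA6 lower by at least 2-fold. Of the 88 members, 75 were tested in both comparisons, DNAJA4 and DNAJB7 only with H2O2 and DNAJC5B only with the knockdown, and 10 in neither, 7 of which had no read in any group.

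**Figure D1:**
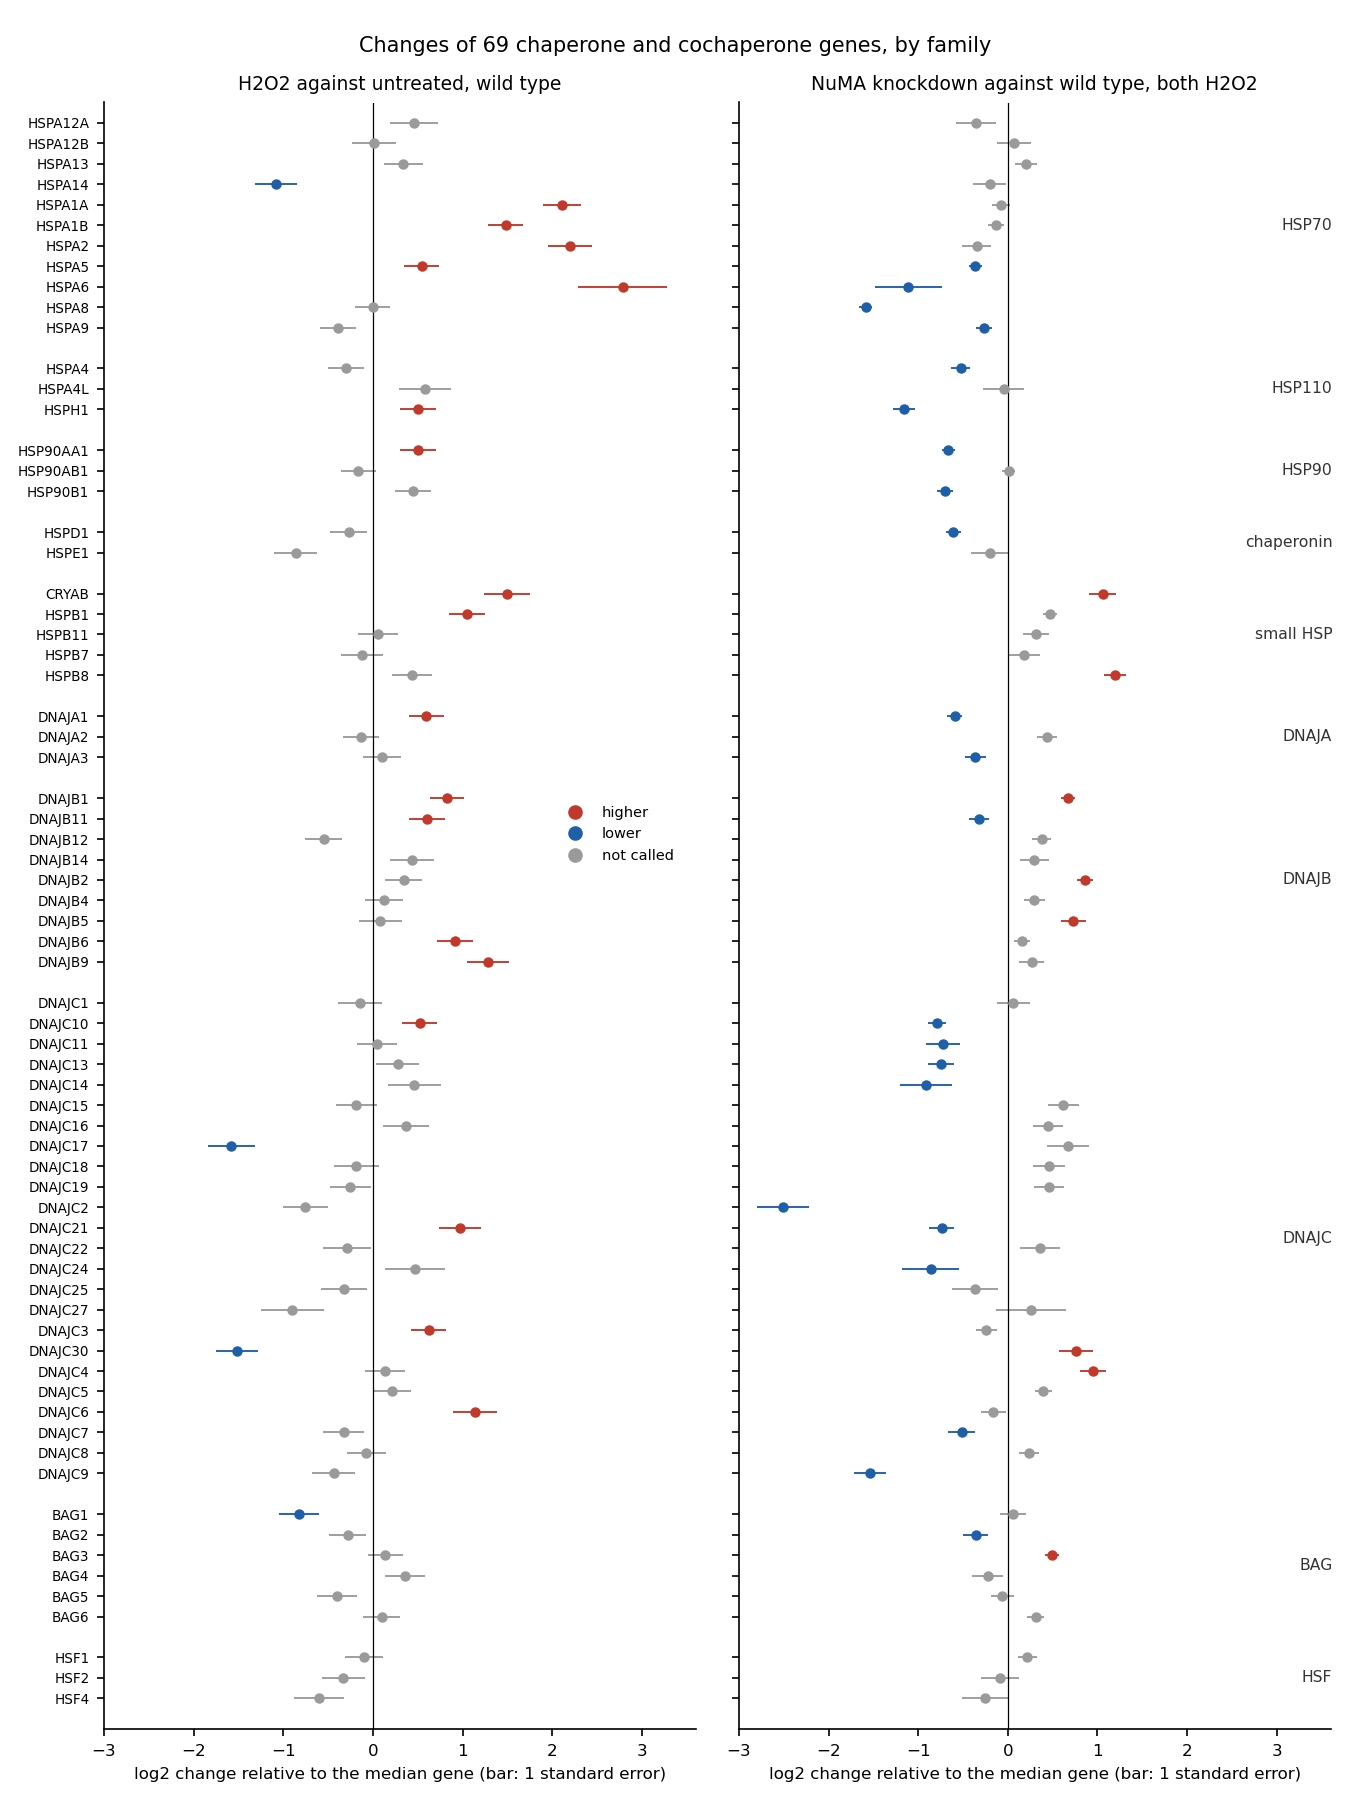
Log2 change relative to the median gene (horizontal axes, bars 1 standard error) for the 69 members tested in both comparisons that reached 50 mean counts in at least 1 group, by family, with members called higher in red, lower in blue and the others in grey. HSPA6, HSPA2 and HSPA1A lie farthest to the right with H2O2, and DNAJC2 and HSPA8 farthest to the left with the knockdown.

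The counts by family, compartment and list that follow stand against the same shares of all tested genes. These were 16.6% higher and 9.6% lower with H2O2 and 6.81% higher and 14.5% lower with the knockdown, not matched for mean counts. Of 12 tested HSP70 genes, 5 rose with H2O2 (HSPA1A, HSPA1B, HSPA2, HSPA5 and HSPA6) and 1 fell (HSPA14). With the knockdown, none was higher and 4 were lower (HSPA5, HSPA6, HSPA8 and HSPA9). The family's median was 0.50 with H2O2 and -0.23 with the knockdown.

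HSPA1A and HSPA1B, the neighbouring genes of the stress-inducible cytosolic HSP70, lie on chromosome 6 (hg38) at 31815464 to 31817946 and 31827735 to 31830255. HSPA1A had 356 mean counts without treatment, 1880 with H2O2 and 1455 with H2O2 and the knockdown. HSPA1B had 824, 2816.5 and 2102. Both were lowest in the untreated group. HSPA1A rose by 2.11 ± 0.21 (4.31-fold, adjusted p = 4.68e-21) and HSPA1B by 1.48 ± 0.20 (2.79-fold, adjusted p = 1.63e-12). Their changes with the knockdown were -0.08 ± 0.10 (adjusted p = 0.627) and -0.13 ± 0.09 (adjusted p = 0.302). The authors' test gave both as lower there (adjusted p = 0.000891 and 1.85e-05), and neither was called. The pair share 71.3% of the 50-base stretches of HSPA1A, so the split of reads between them is uncertain.

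HSPA6, a human HSP70 gene that is nearly silent without stress, had 9.5, 87.5 and 32.5 mean counts in the 3 groups in the same order. It rose by 2.78 ± 0.50 with H2O2 (6.89-fold, adjusted p = 3.48e-07) and was lower, at -1.11 ± 0.37, with the knockdown (2.16-fold, adjusted p = 0.0126). HSPA6 shares 45.5% of its 50-base stretches with HSPA7, which was listed at 0 counts. HSPA2, an HSP70 best known from the testis, had 90.5, 514 and 329.5 mean counts and rose by 2.20 ± 0.25 (4.60-fold, adjusted p = 4.34e-17). Its change with the knockdown was -0.35 ± 0.16, which passed the authors' test (adjusted p = 0.000299) but not the centred test (adjusted p = 0.0831).

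HSPA8, the constitutive HSP70 of the cytosol that also strips clathrin from vesicles, lies on chromosome 11 at 123057489 to 123063230. It had 19324.5 mean counts untreated, 23578.5 with H2O2 and 6422.5 with H2O2 and the knockdown. The knockdown level was the lowest of the 3, below that of untreated cells. HSPA8 did not pass the test with H2O2 (0.00 ± 0.20, adjusted p = 0.991) and fell by 1.59 ± 0.07 with the knockdown (adjusted p = 1.99e-97). Without centring, the authors' deposited table gave -1.88 for that change. The 17 HSPA8 pseudogenes left out held no more than 0.156% of the counts of HSPA8 in any group.

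HSPA5, the HSP70 of the ER also called BiP, had 9819.5, 17520.5 and 11144.5 mean counts. It rose by 0.54 ± 0.20 with H2O2 (adjusted p = 0.0215) and was lower, at -0.36 ± 0.08, with the knockdown (adjusted p = 1.43e-05). HSPA9, the mitochondrial HSP70, had a change of -0.39 ± 0.20 with H2O2, which did not pass (adjusted p = 0.122), and was lower, at -0.26 ± 0.09, with the knockdown (adjusted p = 0.0167). HSPA14 works at the ribosome together with DNAJC2. It had 553.5, 318.5 and 226 mean counts, fell by 1.09 ± 0.23 with H2O2 (2.12-fold, adjusted p = 3.25e-05) and had -0.20 ± 0.19 with the knockdown (adjusted p = 0.481).

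Of the 3 HSP110 genes, HSPH1 was the 1 that rose with H2O2, and HSPH1 and HSPA4 were lower with the knockdown. HSPH1 had 741, 1286 and 471 mean counts, rose by 0.50 ± 0.20 (adjusted p = 0.0385) and was lower, at -1.16 ± 0.12, with the knockdown (2.23-fold, adjusted p = 5.84e-19). HSPA4 had 2117.5, 2102.5 and 1192 mean counts and was lower, at -0.53 ± 0.11, with the knockdown (adjusted p = 5.25e-06). HSPA4L was called in neither comparison. Its change of 0.58 ± 0.29 with H2O2 passed the authors' test (adjusted p = 0.00957) but not the centred test (adjusted p = 0.111). The call of HSPH1 with H2O2 was lost where changes were centred on the median of genes with at least 500 mean counts (0.44) or of all tested genes (0.46), and that of HSP90AA1 likewise (0.44 and 0.45). DNAJC10 also lost its call under the first of these, so that 15 and 16 members rose in place of 18. The matching shares of all tested genes were not worked out.

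HSP90AA1, the inducible cytosolic HSP90, had 12994, 22488.5 and 11606.5 mean counts. It rose by 0.50 ± 0.20 with H2O2 (adjusted p = 0.0438) and was lower, at -0.66 ± 0.08, with the knockdown (adjusted p = 7.17e-17). Its constitutive partner HSP90AB1 had 18819.5, 20559 and 16913.5 mean counts and was called in neither comparison, with -0.16 ± 0.20 (adjusted p = 0.572) and 0.01 ± 0.08 (adjusted p = 0.952). The sign of the last value turns with the scaling, and the authors' test gave it as lower (-0.28, adjusted p = 0.000887). Both promoters hold a 3-unit heat shock element, printed above. HSP90B1, the HSP90 of the ER, had 10903, 18216.5 and 9149.5 mean counts. Its change of 0.45 ± 0.20 with H2O2 passed the authors' test (adjusted p = 0.00118) but not the centred test (adjusted p = 0.0716). It was lower, at -0.70 ± 0.09, with the knockdown (adjusted p = 1.19e-13).

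HSPD1, the mitochondrial chaperonin, had 4715, 4781 and 2567.5 mean counts. It did not pass with H2O2 (-0.27 ± 0.21, adjusted p = 0.338) and was lower, at -0.61 ± 0.08, with the knockdown (adjusted p = 9.52e-12). HSPE1, its lid, had 396.5, 266.5 and 189. The centred change of HSPE1 with H2O2 was -0.86 ± 0.24 (adjusted p = 0.00215), while its adjusted p in the authors' deposited table was 0.0512, so it was not called. HSPD1 shares 18.4% of its 50-base stretches with other genes, chiefly its pseudogene HSPD1P1 (8.96%), and HSPE1 shares 22.7%, chiefly with its neighbour HSPD1 (11%).

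Of 7 tested small heat shock genes, HSPB1 and CRYAB rose with H2O2, CRYAB and HSPB8 were higher with the knockdown, and none was lower in either comparison. HSPB1, a small heat shock protein that binds unfolded chains and actin, had the highest level per length of all members, with 32814 mean counts per kilobase over the 3 groups. HSPA8 followed with 13521 and HSP90AA1 with 12537. HSPB1 had 14797.5 mean counts untreated, 37539 with H2O2 and 42463.5 with H2O2 and the knockdown. It rose by 1.05 ± 0.20 with H2O2 (2.07-fold, adjusted p = 1.99e-06). Its change with the knockdown was 0.47 ± 0.08, which passed the centred test (adjusted p = 8.38e-08) but not the authors' test (adjusted p = 0.0732).

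CRYAB, or alpha B-crystallin, had 98.5, 341 and 581.5 mean counts. It rose by 1.49 ± 0.26 with H2O2 (2.81-fold, adjusted p = 1.12e-07) and was higher by 1.06 ± 0.15 with the knockdown (2.08-fold, adjusted p = 9.16e-11). HSPB8 works with BAG3 and HSP70 in sending aggregating proteins to autophagy. HSPB8 had 347, 575.5 and 1078 mean counts. Its change of 0.44 ± 0.22 with H2O2 passed the authors' test (adjusted p = 0.00463) but not the centred test (adjusted p = 0.123). It was higher by 1.19 ± 0.12 with the knockdown (2.29-fold, adjusted p = 1.67e-21). CRYAB and HSPB8 were both lowest in untreated cells and highest in treated knockdown cells.

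**Figure D2:**
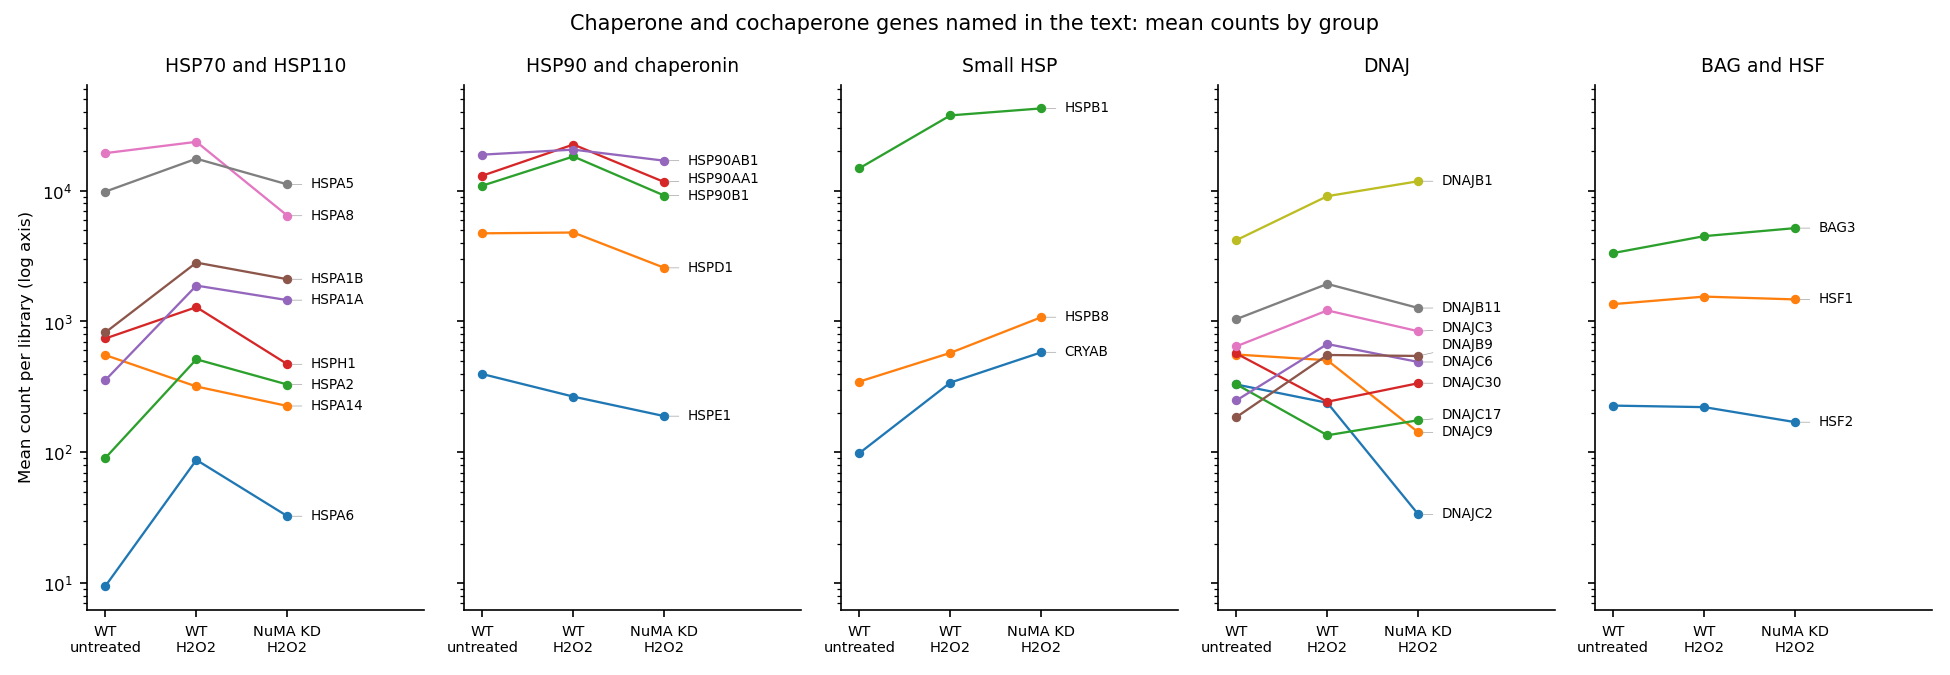
Mean counts per library (log axis) of the 28 members named with full values in the 3 groups, 1 line per gene, in panels by family. HSPA8 falls from 23578.5 to 6422.5 between the H2O2-treated groups, while HSPB1, CRYAB, HSPB8, DNAJB1 and BAG3 have their highest value in the treated knockdown group.

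The DNAJ genes are given by class. Of the DNAJB genes, 4 of 11 rose with H2O2 (DNAJB1, DNAJB6, DNAJB9 and DNAJB11) and none fell, with a median of 0.43. With the knockdown, 3 of 10 were higher (DNAJB1, DNAJB2 and DNAJB5) and 1 was lower (DNAJB11). Of the DNAJC genes, 4 of 26 rose with H2O2 (DNAJC3, DNAJC6, DNAJC10 and DNAJC21) and 2 fell (DNAJC17 and DNAJC30), with a median of -0.16. With the knockdown, 2 of 27 were higher (DNAJC4 and DNAJC30) and 9 lower. Of the DNAJA genes, DNAJA1 rose with H2O2, and DNAJA1 and DNAJA3 were lower with the knockdown. These class counts carry no test of a difference between classes.

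DNAJB1, the main cytosolic partner of HSP70 in refolding, had 4178, 9065.5 and 11793.5 mean counts. It rose by 0.83 ± 0.19 with H2O2 (1.77-fold, adjusted p = 0.000141) and was higher by 0.67 ± 0.08 with the knockdown (1.59-fold, adjusted p = 2.00e-17). Its level was lowest in untreated and highest in treated knockdown cells, as for CRYAB. DNAJA1, a farnesylated cochaperone of cytosolic HSP70, had 2621.5, 4849 and 2630 mean counts. It rose by 0.60 ± 0.20 (adjusted p = 0.0101) and was lower, at -0.59 ± 0.08, with the knockdown (adjusted p = 5.02e-11). DNAJB6, which holds back aggregation of polyglutamine proteins, had 1488.5, 3426.5 and 3128.5. It rose by 0.91 ± 0.20 with H2O2 (adjusted p = 5.46e-05) and had 0.16 ± 0.09 with the knockdown (adjusted p = 0.190). DNAJB2 (0.86 ± 0.09) and DNAJB5 (0.73 ± 0.14) were higher with the knockdown.

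DNAJC6, the neuronal auxilin that recruits HSPA8 to clathrin coats, had 249, 672 and 490 mean counts and rose by 1.14 ± 0.25 with H2O2 (2.20-fold, adjusted p = 4.75e-05). DNAJC21, a ribosome biogenesis factor, had 306.5, 735.5 and 360. It rose by 0.97 ± 0.23 (adjusted p = 0.000218) and was lower, at -0.74 ± 0.14, with the knockdown (adjusted p = 1.82e-06). DNAJC17 had 331, 135 and 176 mean counts and fell by 1.58 ± 0.26 with H2O2 (2.99-fold, adjusted p = 3.79e-08). DNAJC30, a mitochondrial J protein, had 569.5, 243.5 and 337.5, and it fell by 1.51 ± 0.23 with H2O2 (2.85-fold, adjusted p = 2.44e-09). It was higher by 0.76 ± 0.19 with the knockdown (adjusted p = 0.00034). Both genes had their highest level in untreated cells. DNAJC17 shares 22.3% of its 50-base stretches with other genes, chiefly GCHFR, and DNAJC30 shares 13.5%, chiefly with BUD23.

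DNAJC2, the J protein of the ribosome-associated complex with HSPA14, lies on chromosome 7 at 103312474 to 103344873. It had 330 mean counts untreated, 239 with H2O2 and 33.5 with H2O2 and the knockdown. Its fall of 2.51 ± 0.29 with the knockdown (5.69-fold, adjusted p = 2.76e-16) was the largest of any tested member in that comparison. With H2O2 it had -0.75 ± 0.25, which passed the centred test (adjusted p = 0.0123) but not the authors' test (adjusted p = 0.145). DNAJC9, a histone chaperone, had 559, 505.5 and 142. It fell by 1.53 ± 0.18 with the knockdown (2.90-fold, adjusted p = 2.69e-16) and had -0.44 ± 0.24 with H2O2 (adjusted p = 0.160). DNAJC9 shares 27.4% of its 50-base stretches with other genes, chiefly FAM149B1. The other 7 DNAJC genes lower with the knockdown, listed after their values were seen, were DNAJC7, DNAJC10, DNAJC11, DNAJC13, DNAJC14, DNAJC21 and DNAJC24, with changes from -0.51 (DNAJC7) to -0.91 (DNAJC14). DNAJC14 shares 53.1% of its stretches with other genes.

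Of the 6 BAG genes, BAG1 fell with H2O2, BAG3 was higher with the knockdown and BAG2 was lower. BAG3, the stress-inducible partner of HSPB8, had 3332, 4487 and 5168.5 mean counts. Its change with H2O2 was 0.14 ± 0.20 (adjusted p = 0.645), and it was higher by 0.49 ± 0.08 with the knockdown (adjusted p = 1.90e-08). BAG1, which releases ADP from HSP70 and binds the proteasome, had 992.5, 686.5 and 584 mean counts and fell by 0.82 ± 0.22 with H2O2 (adjusted p = 0.00127). BAG2, an inhibitor of the ubiquitin ligase CHIP, had -0.36 ± 0.14 with the knockdown (adjusted p = 0.0362), and it shares 43.9% of its stretches with other genes, chiefly RAB23.

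No heat shock factor gene passed in either comparison. HSF1 had 1356.5, 1548.5 and 1473.5 mean counts, with -0.10 ± 0.22 for H2O2 (adjusted p = 0.777) and 0.22 ± 0.11 for the knockdown (adjusted p = 0.119). HSF2 had 227.5, 221.5 and 170, with -0.33 ± 0.24 (adjusted p = 0.320) and -0.09 ± 0.21 (adjusted p = 0.819). HSF1 is switched on mainly at the protein level, which these data do not measure. Of the 12 textbook heat shock factor targets among the members, 7 (58.3%) rose with H2O2 and none fell, against 16.6% and 9.6% of all tested genes. They were CRYAB, DNAJB1, HSP90AA1, HSPA1A, HSPA1B, HSPB1 and HSPH1, and the other 5 were BAG3, HSP90AB1, HSPA8, HSPD1 and HSPE1. With the knockdown, BAG3, CRYAB and DNAJB1 were higher, HSP90AA1, HSPA8, HSPD1 and HSPH1 lower, and the other 5 were not called. That is 25% higher and 33.3% lower, against 6.81% and 14.5% of all tested genes. Among those 5, HSP90AB1, HSPA1A and HSPA1B were lower by the authors' test alone and HSPB1 higher by the centred test alone. HSPE1 passed neither test.

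By compartment, 5 of 14 ER members rose with H2O2 (HSPA5, DNAJB9, DNAJB11, DNAJC3 and DNAJC10) and none fell, with a median of 0.44. The share that rose was 35.7%, against 16.6% of all tested genes. DNAJC10 lost its call when changes were centred on the median of genes with at least 500 mean counts, which leaves 4. Of 10 mitochondrial members none rose and 1 fell, DNAJC30, with a median of -0.26, and this 10% is close to the 9.6% of all genes that fell. Of 51 cytosolic and nuclear members 13 (25.5%) rose and 3 (5.88%) fell, with a median of 0.12. With the knockdown, no ER member was higher and 5 of 14 were lower (HSPA5, HSP90B1, DNAJB11, DNAJC10 and DNAJC14). Of the 10 mitochondrial members, 2 were higher (DNAJC4 and DNAJC30) and 4 lower (HSPA9, HSPD1, DNAJA3 and DNAJC11). Of 50 cytosolic and nuclear members 6 were higher and 13 lower. The shares were 35.7% lower in the ER, 20% higher and 40% lower in the mitochondrion and 12% higher and 26% lower in the cytosol and nucleus, against 6.81% higher and 14.5% lower of all tested genes.

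**Figure D3:**
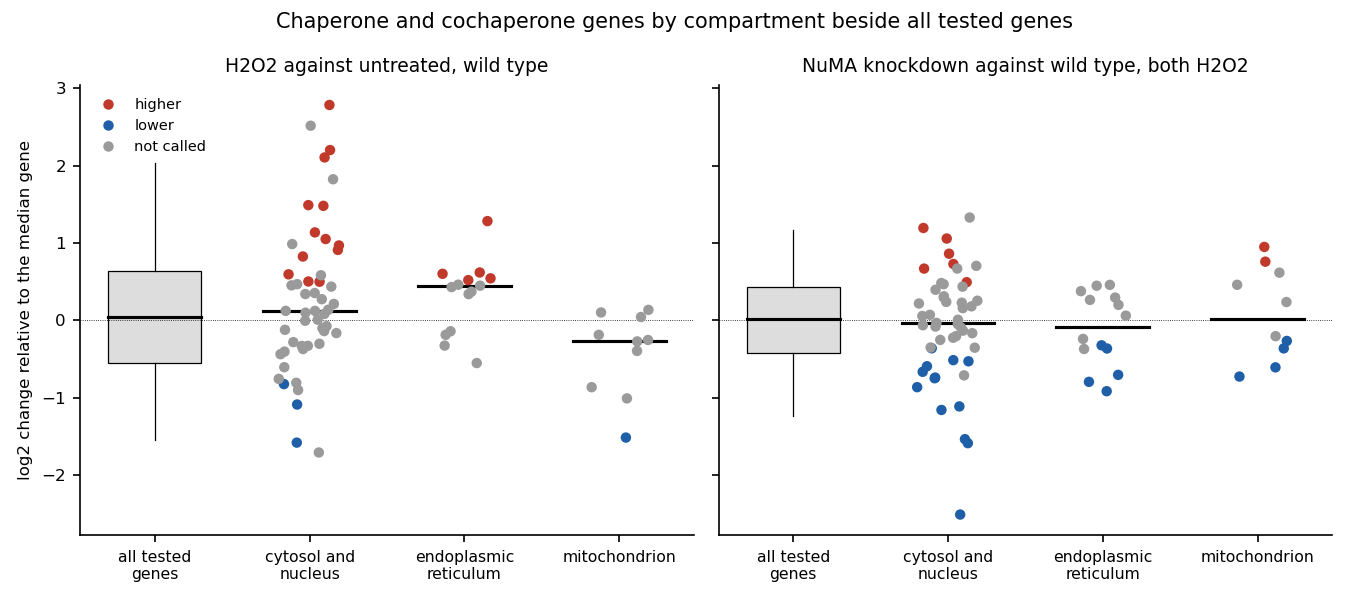
Log2 change relative to the median gene (vertical axis) of every tested member by compartment, 1 point per gene, with the median as a thick line, in red where higher, blue where lower and grey where not called. The box at the left gives the median and quartiles of all tested genes, with lines to the 5th and 95th percentiles, and the ER members have a median of 0.44 with H2O2 and -0.09 with the knockdown.

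DNAJB9, an ER J protein that marks the unfolded protein response, had 185.5, 554.5 and 545 mean counts. It rose by 1.28 ± 0.23 with H2O2 (2.43-fold, adjusted p = 4.46e-07) and had 0.27 ± 0.14 with the knockdown (adjusted p = 0.159). DNAJB11, a cofactor of HSPA5, had 1041.5, 1936 and 1266.5. It rose by 0.60 ± 0.20 (adjusted p = 0.00955) and was lower, at -0.32 ± 0.11, with the knockdown (adjusted p = 0.0142). DNAJC3, which restrains the kinase PERK, had 645.5, 1214.5 and 841.5. It rose by 0.62 ± 0.20 (adjusted p = 0.00683). Its -0.24 ± 0.11 with the knockdown passed the authors' test (adjusted p = 2.18e-05) but not the centred test (adjusted p = 0.103). DNAJC10, an ER disulfide reductase, had 1281.5, 2251 and 1061.5, rose by 0.52 ± 0.19 (adjusted p = 0.0259) and was lower, at -0.79 ± 0.10, with the knockdown (adjusted p = 7.76e-14). The mean counts of DNAJB9, DNAJB11 and DNAJC3 were lowest in untreated cells and those of DNAJC10 in treated knockdown cells.

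The same tests were read for 3 lists of chaperones, cochaperones and related genes outside the member families. Among 14 genes of the cytosolic chaperonin TRiC and of prefoldin, which hands it actin and tubulin, 4 fell with H2O2 and none rose, all 4 of them prefoldin subunits (PFDN1, PFDN2, PFDN5 and PFDN6). This is 28.6% of the list, against 9.6% of all tested genes. With the knockdown, PFDN1, PFDN4, PFDN5, PFDN6 and CCT7 were higher, and TCP1, CCT5, CCT6A and CCT8 lower, or 35.7% and 28.6%, against 6.81% and 14.5%. PFDN5 had 2962.5, 1986 and 3460.5 mean counts, and fell by 0.87 ± 0.20 with H2O2 and was higher by 1.09 ± 0.09 with the knockdown. Among 19 other cochaperones of HSP70 and HSP90, CHORDC1, FKBP5, PPID, ST13 and TOMM34 (26.3%, against 16.6% of all) rose with H2O2 and none fell. With the knockdown CDC37 was higher and 5 were lower, CHORDC1, FKBP5, PPID, ST13 and TOMM34 (26.3%, against 14.5%). FKBP5, an HSP90 cochaperone of steroid receptors, had 230, 449 and 166 mean counts, with 0.67 ± 0.26 and -1.14 ± 0.19.

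The last list held 17 other chaperones, cochaperones and related genes of the ER and mitochondrion. With H2O2, 4 of them rose, all of the ER (CANX, HYOU1, PDIA3 and PDIA6), and 3 fell, all of the mitochondrion (CLPP, GRPEL1 and GRPEL2). The shares of the whole list were 23.5% and 17.6%, against 16.6% and 9.6% of all tested genes. Shares for each compartment of the list were not worked out. HYOU1, the ER relative of HSP110, had 1290, 2526.5 and 1193 mean counts. With the knockdown SIL1, a nucleotide exchange factor of HSPA5, was higher by 1.15 ± 0.12, and CLPP was also higher. CANX, GRPEL2, HYOU1, PDIA6 and SEC63 were lower, 29.4% of the list against 14.5% of all. PDIA6, a disulfide isomerase that acts with HSPA5, had 1302, 2823.5 and 890 mean counts and was lower, at -1.37 ± 0.10.

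**Figure D4:**
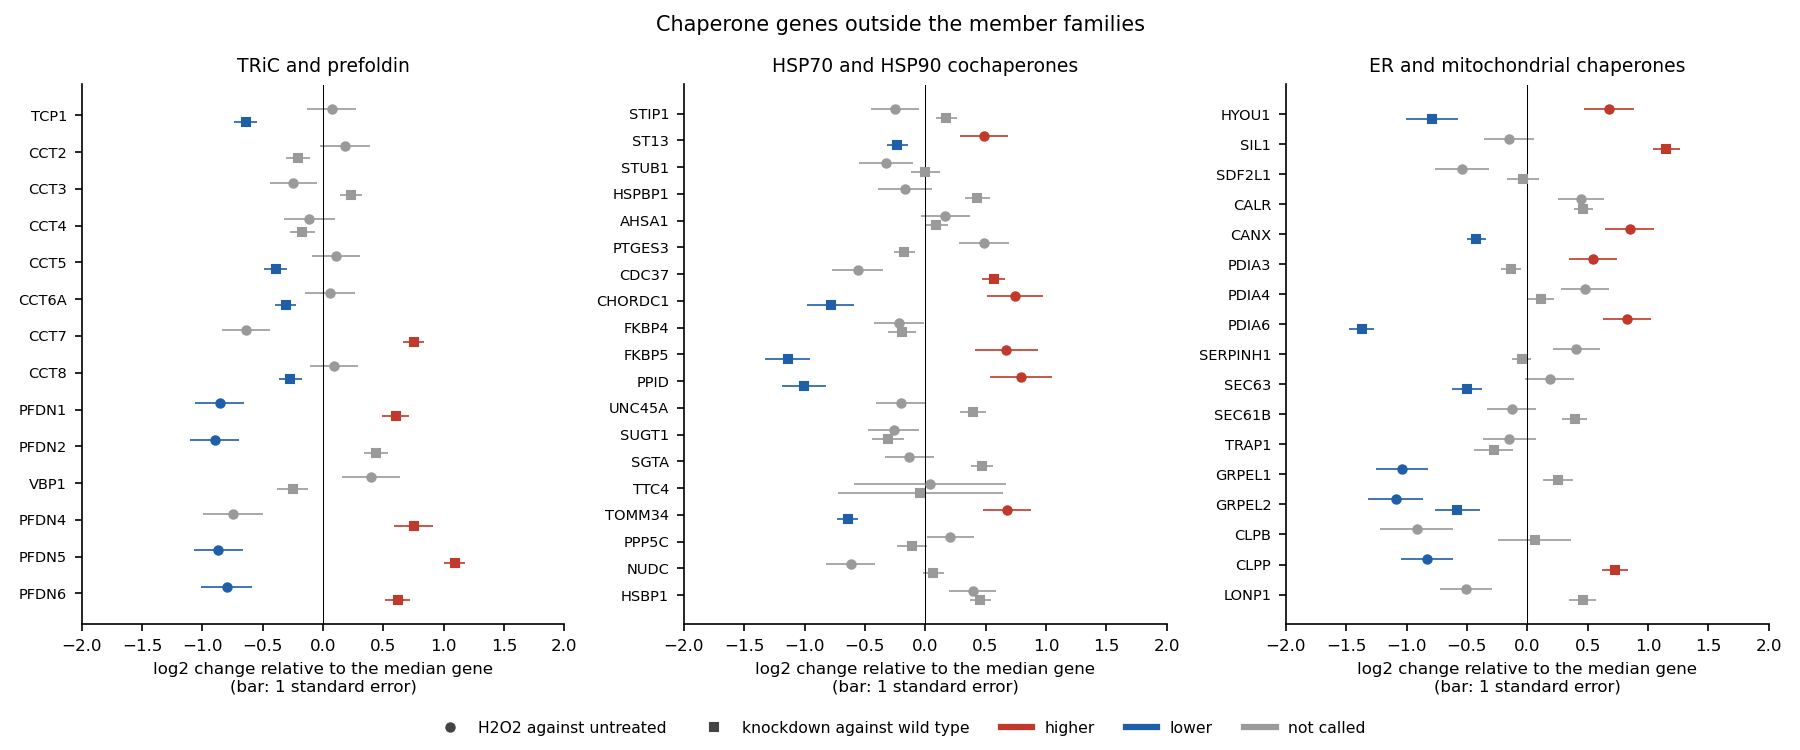
Log2 change relative to the median gene (horizontal axes, bars 1 standard error) of chaperones, cochaperones and related genes outside the member families. Circles stand for H2O2 against untreated wild type and squares for knockdown against wild type. Red marks higher, blue lower and grey not called. The called prefoldin subunits lie left of 0 with H2O2 and right of 0 with the knockdown.

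The H2O2-treated knockdown cells and the untreated wild type cells were not compared in a table used here, so these groups are only set side by side. The median shifts of the 2 comparisons had nearly the same size and opposite signs, so by the median gene these 2 groups stand on nearly the same scale. By total counts they do not, since mean counts summed to 16565168 in treated knockdown and 14576529 in untreated wild type cells. Small differences between these groups therefore depend on the scaling. HSPA8 had 6422.5 mean counts in treated knockdown cells beside 19324.5 in untreated wild type cells, and DNAJC2 had 33.5 beside 330. HSPA5 had 11144.5 beside 9819.5, and HSP90AA1 had 11606.5 beside 12994. HSPA1A, with 1455 beside 356, HSPB1, with 42463.5 beside 14797.5, and CRYAB, with 581.5 beside 98.5, had the higher value in the treated knockdown cells. The spread between libraries is not known for this pair, and no test was made.

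Among promoters of members that rose with H2O2, 4 of 17 held a 3-unit heat shock element (DNAJA1, DNAJB6, HSP90AA1 and HSPA6), and 3 of 48 of those not called did (HSP90AB1, HSPA8 and HSPD1). None of the 3 that fell with H2O2 did. Of those lower with the knockdown, 5 of 21 held one (DNAJA1, HSP90AA1, HSPA6, HSPA8 and HSPD1). None of the 7 higher ones did, and 2 of the 38 not called there did (DNAJB6 and HSP90AB1). Over all member promoters the share was 9.46%, and the groups are small. The 2-unit form stood in 9 of the 17 that rose with H2O2, those printed for HSPA1A, HSPB1 and DNAJB1 among them, in none of 3 that fell and in 13 of 48 not called. With the knockdown it stood in 2 of 7 that were higher, 7 of 21 that were lower and 11 of 38 not called. Gene span varied with the changes over all genes, with Spearman's rho of 0.27 over 11573 genes for H2O2 and -0.24 over 11526 for the knockdown. Over the members rho was 0.02 for 68 genes and -0.18 for 69. All genes of a comparison share the same libraries, so these values are descriptions.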

How the data were processed

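4sU-seq was made from 6 RPE1 libraries in 3 groups, grouped by the labels' treatment and genotype. Per the labels' protocols, Trizol was used for RNA and Illumina's standard procedure for libraries. Per the submitters' processing notes, the tools were STAR 2.5, DESeq and DESeq2 and the build hg38, with no roles stated. Which program counted reads, whether it used strand and which annotation it read are not given in the sources used here. Reads of overlapping genes, antisense ones included, therefore cannot be told apart.

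In 2 tables the authors deposited a signal value per gene and group, pooled over libraries, a log2 fold change equal to the log2 ratio of those values, and a p-value for every gene. Adjusted p-values were deposited for 18522 and 18266 genes, and these are the genes tested. From the steps of the signal values, each was the mean count plus 1, divided by a gene length and multiplied by a constant. Mean counts came out as multiples of 0.5, within 0.0001, for 100% of genes. The length was the annotation's average transcript length, rounded down, for 86.0% of genes and for 72 of the 88 members. For the other 16 (BAG1, DNAJB11, DNAJC10, DNAJC13, DNAJC14, DNAJC19, DNAJC21, DNAJC22, HSF4, HSF5, HSP90B1, HSPA12A, HSPA14, HSPA4, HSPA9 and HSPB6) mean counts may be off by a whole factor common to the groups, which leaves changes untouched.

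Values per library were not in the tables used, so a count model could not be run and the fallback written in the design was used. From each log2 change the median over tested genes of 50 or more mean counts (11602 and 11556 genes) was subtracted. They were tested with the standard error implied by the deposited p-value in a normal test, with Benjamini-Hochberg adjustment over all tested genes, in Python 3.11.15 with numpy 2.4.6, pandas 2.3.3 and scipy 1.17.1. Where the deposited p-value gave no standard error (205 and 246 genes), the median of the 101 genes nearest in mean count was used. The procedure was tested on simulated data. P-values rest on the spread between libraries, which may be technical. How far a gene's own 2 libraries set its standard error is not known. With H2O2 these errors were alike for HSPB1 (0.200), HSPA8 (0.199), HSPA5 (0.197) and DNAJB1 (0.192). Members named with full values were those called with at least 2-fold change, the 3 with the highest level per length, HSF1, HSF2 and the textbook heat shock factor and ER stress targets. Members called in counts of 5 or fewer are also named, and other genes given with values (DNAJA1, DNAJB6, DNAJC10, DNAJC21, PFDN5, FKBP5, HYOU1 and PDIA6 among them) were picked after their values were seen. The members and all lists were chosen with earlier results of these data known. Shared sequence is the share of a gene's 50-base transcript stretches, on either strand, found in another gene of the annotation. Other centrings, either test alone, a threshold of 0.01, no added count and a minimum of 50 mean counts were tried.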

Additional observations from a re-analysis of the deposited data

How the results depend on the processing

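Each result was recomputed with either test alone, with 3 other scalings, at a threshold of 0.01, without the added count and with a minimum of 50 mean counts, and the last pair left the side of the threshold of all 56 changes of named members as it was. With the deposited fold change and adjusted p alone, 30 members rose with H2O2 and the members' median was 0.39, and the median of the knockdown comparison was -0.30. Calls gained in this way included HSP90B1 and HSPB8, higher with H2O2, and DNAJC3, DNAJC6, HSP90AB1, HSPA14, HSPA1A, HSPA1B and HSPA2, lower with the knockdown. The sign turned there with H2O2 for HSF1 (0.19), HSP90AB1 (0.13), HSPA8 (0.29) and HSPD1 (0.020) and with the knockdown for DNAJB9 (-0.025), HSF1 (-0.072) and HSP90AB1 (-0.28), since no median gene is subtracted. With the centred test alone, 8 members fell with H2O2 and 19 were higher with the knockdown, HSPB1 and DNAJC17 among them. Scaling by total counts used only genes whose length matched the annotation. It gave a median of -0.21 and 30 lower members in the knockdown comparison. It turned HSPA8 with H2O2 (0.042) and HSP90AB1 with the knockdown (-0.19), and made HSP90B1 higher with H2O2 (0.50). Among others, it made HSPA1A (-0.28), HSPA1B (-0.33) and HSPA2 (-0.55) lower with the knockdown. HSP90AB1 in the knockdown comparison also turned with the median of genes with at least 500 mean counts (-0.054) and of all tested genes (-0.0057). With the median of genes with at least 500 mean counts, 15 members rose with H2O2, without DNAJC10, HSP90AA1 and HSPH1, and with that of all tested genes 16, without the last pair. At a threshold of 0.01, 13 members rose and 3 fell with H2O2, without BAG1, DNAJA1, DNAJC10, HSP90AA1, HSPA5 and HSPH1. At that threshold 6 were higher and 17 lower with the knockdown, without BAG2, BAG3, DNAJB11, DNAJC24, DNAJC30, HSPA6 and HSPA9. Shares of all tested genes for either test alone are given further up. For the other scalings and the threshold of 0.01 such shares were not worked out. Member counts under those settings therefore cannot be set against all genes. No paired analysis was possible because the tables used hold 1 value per group, and for the same reason leaving out each library was not run. Low counts widen the standard error, which was 0.50 for HSPA6 with H2O2 and 1.55 for DNAJB13, with 0, 6 and 7 mean counts.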
